A study of Sinibotia superciliaris with 2 samples.

Results

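The genes that build the ribosome and run protein synthesis were examined in the black and the yellow skin of the loach Sinibotia superciliaris. Members were the unigenes (assembled gene identifiers) whose protein description named a ribosomal protein, a translation initiation factor, an elongation factor, a translation factor or a tRNA synthetase or ligase, with kinases and transcription elongation factors left out. The rule took 142 of 5676 annotated unigenes, and these joined into 119 of 4058 genes by their best Swiss-Prot entry name, which is the name used for each gene below. Of them, 100 genes, from 112 unigenes, had a mean of at least 1 RPM (reads per library scaled to 1000000) over both libraries and are called measured. The other 19 genes were below that minimum. A name is only the best protein match, which does not separate an ortholog from a near-identical copy.

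Black skin and yellow skin were each represented by 1 RNA-seq library from adult, wild-caught fish. The labels name 6 individuals as the source of the skin, and do not say whether each fish gave both colours, whether both libraries hold the same fish or whether RNA was pooled. The fish weighed 6.25 ± 0.30 g and measured 8.75 ± 0.20 cm, without a statement of what the ± values stand for. With 1 library per colour there is no replicate to check a difference against, and nothing below is tested across fish. The bounds in parentheses after each ratio are 95% limits of counting error alone, approximate and computed over read pairs.

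A ribosome has a small subunit that reads the mRNA and a large subunit that forms the peptide bond, and each is a scaffold of rRNA studded with many proteins needed in equal numbers. Initiation factors bring the ribosome and the first tRNA to an mRNA, elongation factors drive it along, and aminoacyl-tRNA synthetases load each tRNA with its amino acid. Mitochondria keep a second, bacterial-type set of ribosomes, factors and synthetases, whose proteins are encoded in the nucleus and which make a few subunits of the respiratory chain. In vertebrates the mRNAs of the cytosolic ribosome carry a shared oligopyrimidine start through which growth signals regulate their translation.

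The reads recovered from the deposited values, summed over all unigenes and apparently with mates counted singly, were 35386871 in black and 38323075 in yellow skin. The median annotated gene had a log2 ratio, black over yellow and taken on log2(RPM + 1), of 0.21 over 3644 measured genes. The median of their RPM ratios, taken separately and without a pseudocount, was 1.17. Below, genes are called above or below the all-gene median by log2 ratio, and whole intervals by the RPM ratio of 1.17. A gene close to either limit can be called differently by the other. Other scalings of the libraries brought the median log2 ratio to between 0.03 and 0.07, so the members are read against the median of all genes and not against 0. TMM scaling lowers the log2 ratio of a well-covered gene by about 0.19, and of a gene at a few RPM by less, so a ratio slightly above 0 can change sign. Markers of other cells differed between the libraries too. Skeletal muscle genes summed to 4030 RPM in black and 4563 RPM in yellow skin, immune genes to 320.3 and 245 RPM, and melanophore genes to 21.5 and 1.96 RPM. Of 15 measured muscle genes, 12 had a log2 ratio below 0 and 3 above it, with AT2A1 at 39.3 RPM in black and 15.8 RPM in yellow skin. Of 7 measured immune genes, 6 were above 0 and 1 below, NCF1 at 1.95 RPM in black and 2.45 RPM in yellow skin. Of all measured annotated genes, 19.7% had a log2 ratio below 0. Against the all-gene median, 5 immune genes were above and 2 below, and 3 muscle genes were above and 12 below. Oocyte genes summed to 80.7 RPM in black and 23.9 RPM in yellow skin. Red blood cell genes were split, with the transferrin receptor TFR1 at 68.1 RPM in black and 50.4 RPM in yellow skin, the heme synthesis enzyme HEM0 at 8.25 and 9.60 RPM, and the carbonic anhydrase CAHZ at 1.07 and 3.36 RPM. Of 24 keratinocyte and epidermis names, 5 were annotated and measured, none of them a keratin, and their sum was 2585 RPM in black and 2177 RPM in yellow skin. No annotated gene of these marker lists was at 0 reads in either library.

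Of the 100 measured translation genes, 0 were at least 2-fold apart between the colours, where 0.96% of all measured annotated genes were, with 0.823% on the black and 0.137% on the yellow side. Among unigenes it was 0 of 112, where 1.09% of all measured unigenes were at least 2-fold apart. Within that range the roles differed in where most of their genes lay, though their ranges overlapped. All 32 measured cytosolic ribosomal proteins lay above the median gene and 11 of 13 mitochondrial ones below it. The factors and synthetases lay on both sides. Counting a gene when its whole interval left the ratio of the median gene, 43 of the 100 members were above it, where 18.3% of the measured genes that are no members were, and 12 were below it, where 20.2% were. Neither percentage is matched for read depth. Of the 43 members above, 30 were cytosolic ribosomal proteins, and of the 12 below, 5 were mitochondrial ribosomal proteins. The log2 ratio itself was below 0 in 15 of the 100, where it was so in 19.7% of all genes. The members together made up 2.70% of reads in black and 2.13% in yellow skin. These shares give a ratio of 1.27 (1.26 to 1.27).

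**Figure D1:**
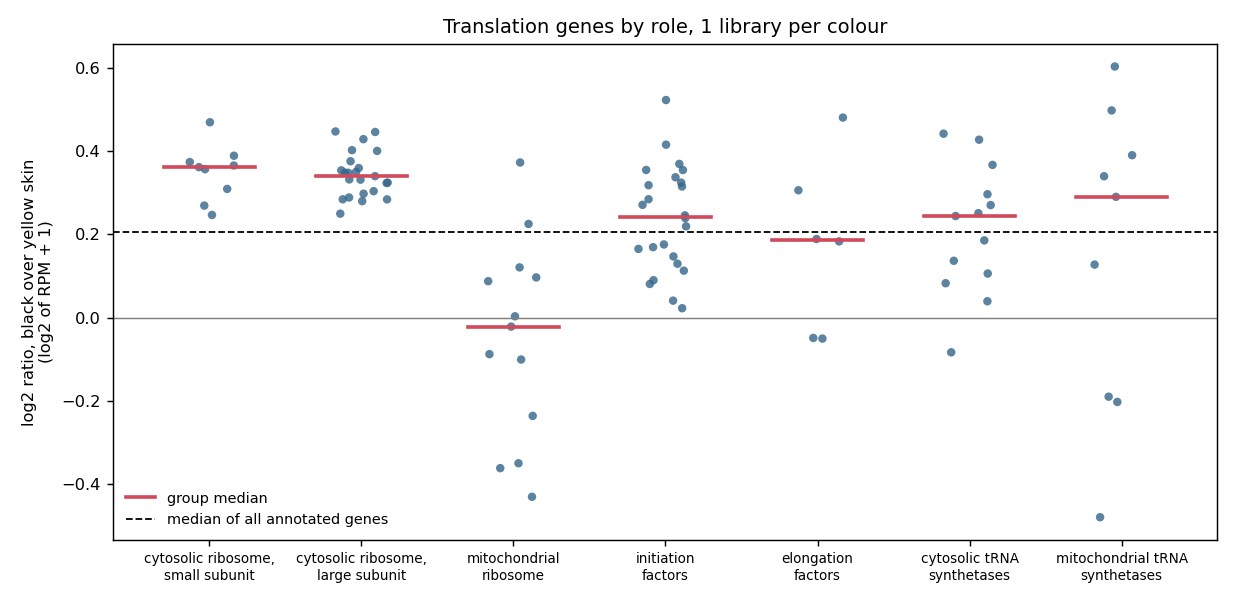
Log2 ratio of black over yellow skin (y axis, on log2 of RPM + 1) of each measured translation gene, grouped by role, with 1 point per gene, a bar at the group median and a dashed line at the median of all annotated genes (0.21). All 32 cytosolic ribosomal protein genes lie above the dashed line, and 11 of 13 mitochondrial ones lie below it.

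The cytosolic ribosome had 32 measured protein genes of 48 members, 9 of the small and 23 of the large subunit. All 32 were above the median of all genes, 30 with their whole interval above it, and the 2 others were RS15A and RL26. All 32 exceeded a mean of 100 RPM, and intervals narrow with more reads. A closer background is the 322 genes that are no members and have a mean of at least 100 RPM, though above that minimum read depth is not matched. Of those, 27.3% had their whole interval above the median gene and 39.4% below it. Summed over all 48 members, cytosolic ribosomal proteins made up 2.17% of reads in black and 1.71% in yellow skin. The ratio was 1.27 (1.27 to 1.28), and it was 1.12 under TMM scaling. In bulk skin, fewer cells of a type and less RNA per cell cannot be told apart.

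The spread among these genes was small. Their log2 ratios ran from 0.25 to 0.47 with a median of 0.35 and an SD of 0.06, and their RPM ratios from 1.19 to 1.39. The 322 other genes of at least 100 RPM had a median log2 ratio of 0.20 and an SD of 0.22, with 10th and 90th percentiles of -0.07 and 0.41. The subunits did not separate from each other, with median log2 ratios of 0.36 for the small and 0.34 for the large subunit. Under TMM and median-of-ratios scaling, and without the 2 or the 100 most abundant unigenes, the median of the cytosolic ribosomal proteins was 0.16 to 0.20 over 33 genes, since RL51 then passed the minimum. Of the 33, RL51 was below 0 and the 32 others stayed above it. RL51 held 29 black and 45 yellow reads. Its best match was an invertebrate protein and its Swiss-Prot match a plant protein, so it may not be a gene of the fish.

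In the small subunit the highest ratio belonged to RS26, a protein near the mRNA exit channel, with 758 RPM in black and 547 RPM in yellow skin, 1.39 (1.35 to 1.42). RS15, near the decoding center, had 292 RPM in black and 222 RPM in yellow skin, 1.31 (1.26 to 1.37). RS9 had 930.2 RPM in black and 717 RPM in yellow skin, 1.30 (1.27 to 1.33). At the lower end of the same subunit the difference between the colours was smaller. RS15A had 400.5 RPM in black and 337 RPM in yellow skin, 1.19 (1.15 to 1.23). RS5, which contacts the mRNA near the exit site, had 635 RPM in black and 527 RPM in yellow skin, 1.21 (1.17 to 1.24). RS12 had 742 RPM in black and 599 RPM in yellow skin, 1.24 (1.21 to 1.27). RS14, the small-subunit gene with the most reads, sat between these ends at 1168 RPM in black and 909 RPM in yellow skin, 1.29 (1.26 to 1.31).

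The large subunit spanned nearly the same range. RL27A had 479 RPM in black and 351 RPM in yellow skin, 1.36 (1.32 to 1.41). RL35, at the rim of the peptide exit tunnel, had 581 RPM in black and 426 RPM in yellow skin, 1.36 (1.32 to 1.40). RL13 had 1225 RPM in black and 909.7 RPM in yellow skin, 1.35 (1.32 to 1.37). These 3 were the highest of the subunit. The lowest 3 began with RL26, also at the tunnel exit, with 612 RPM in black and 514 RPM in yellow skin, 1.19 (1.16 to 1.22). RL8 had 899 RPM in black and 740.4 RPM in yellow skin, 1.21 (1.19 to 1.24). RL36A had 305 RPM in black and 250.2 RPM in yellow skin, 1.22 (1.17 to 1.27). Of the 2 genes with the most reads, neither stood at an end. RL6 had 1612 RPM in black and 1273 RPM in yellow skin, 1.27 (1.24 to 1.29). RL5, which travels with 5S rRNA and can bind the p53 regulator Mdm2 when ribosome assembly fails, had 1413 RPM in black and 1149 RPM in yellow skin, 1.23 (1.21 to 1.25). Both measured acidic proteins of the P stalk, where elongation factors dock, were on the black side, with RLA1 at 505 RPM in black and 393 RPM in yellow skin and RLA2 at 393 RPM in black and 297 RPM in yellow skin.

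**Figure D2:**
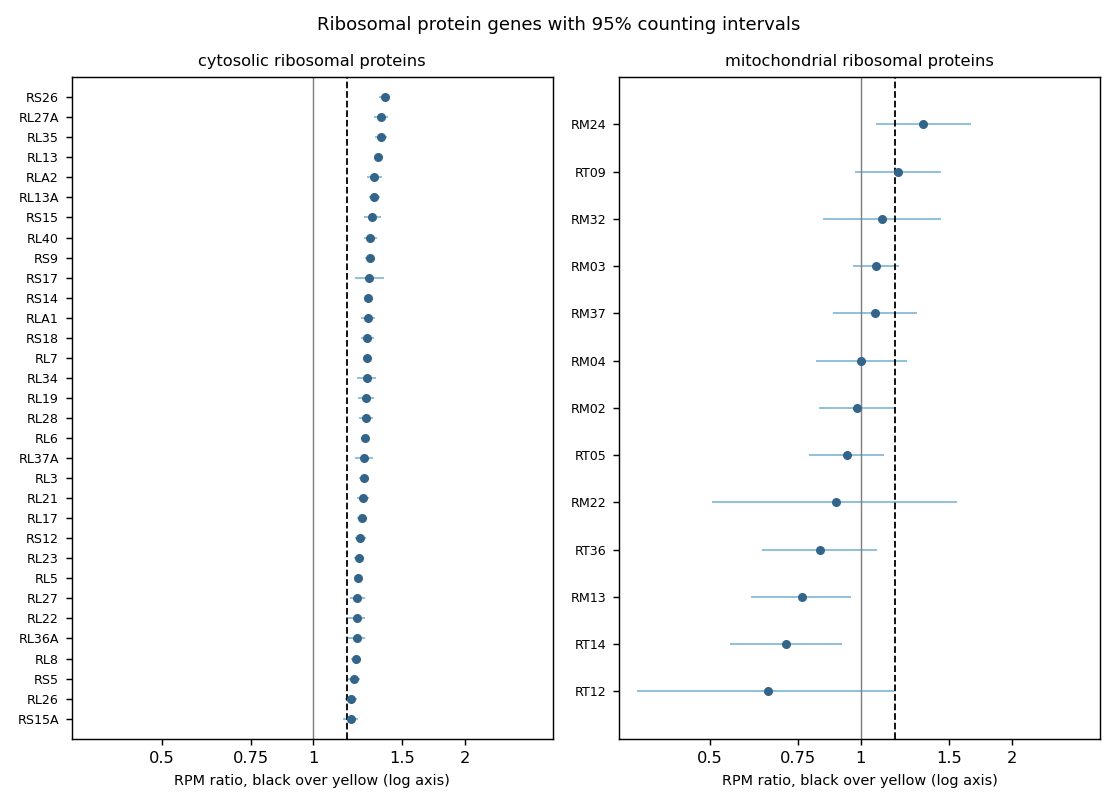
RPM ratio of black over yellow skin (x axis, log scale) of each measured ribosomal protein gene, cytosolic on the left and mitochondrial on the right, with 95% counting intervals, a solid line at equal RPM and a dashed line at the median annotated gene (1.17). The cytosolic genes form a narrow band from 1.19 to 1.39, and the mitochondrial genes run from 0.653 to 1.33 with wider intervals.

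Mitochondrial ribosomal proteins did not share this shift. All 13 members were measured, and 11 of them were below the median of all genes, 5 with their whole interval below it and 0 with it above. Of measured genes that are no members, not matched for read depth, 20.2% had their whole interval below and 18.3% above. The median log2 ratio of the 13 was -0.02, with a range from -0.43 to 0.37 and an SD of 0.24. Their sum was 141 RPM in black and 140.5 RPM in yellow skin, 1.005 (0.951 to 1.06), where the cytosolic proteins had 1.27. Under the other scalings the median was -0.16 to -0.20. The muscle markers listed above were lower still, 12 of 15 measured with a log2 ratio below 0 and a summed ratio of 0.883 (0.874 to 0.892) over the 16 annotated, and their part in the mitochondrial values was not tested.

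The small mitochondrial subunit had the lower summed ratio of the pair, but the intervals of the subunits overlapped. Its 5 genes summed to 39.6 RPM in black and 42.9 RPM in yellow skin, 0.924 (0.834 to 1.02). Of the 5, 4 had their whole interval below the median gene. That share was 20.2% for measured genes that are no members, not matched for read depth. RT14 had 5.88 RPM in black and 8.27 RPM in yellow skin, 0.711 (0.549 to 0.916). RT12, a protein of the decoding center, had 1.16 RPM in black and 1.77 RPM in yellow skin, 0.653 (0.358 to 1.16), an interval that includes 1. The upper limit of RT12, 1.163, was barely below the 1.167 of the median gene. RT05 had 14.2 RPM in black and 15.1 RPM in yellow skin, 0.937 (0.788 to 1.11). The single small-subunit gene above the median gene was RT09, with 12.5 RPM in black and 10.5 RPM in yellow skin, 1.19 (0.975 to 1.44). The 8 genes of the large mitochondrial subunit summed to 102 RPM in black and 97.7 RPM in yellow skin, 1.04 (0.974 to 1.11). RM13 had 7.46 RPM in black and 9.78 RPM in yellow skin, 0.762 (0.606 to 0.958). RM24 was at the other end with 10.7 RPM in black and 8.06 RPM in yellow skin, 1.33 (1.07 to 1.66). Between them, RM32 had a ratio of 1.10 (0.841 to 1.44) and RM03, the mitochondrial ribosomal gene with the most reads, had 38.8 RPM in black and 36.2 RPM in yellow skin, 1.07 (0.963 to 1.19).

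All 24 initiation factor genes were measured. Their median log2 ratio was 0.24, close to that of all genes, with 14 above and 10 below the all-gene median. Of the 24 intervals, 8 lay wholly above the ratio of the median gene and 3 wholly below it. Among measured genes that are no members, not matched for read depth, 18.3% lay wholly above and 20.2% wholly below. The cap-binding protein IF4EA, an eIF4E that holds the 5′ end of the mRNA, had the highest ratio with 25.5 RPM in black and 17.4 RPM in yellow skin, 1.46 (1.27 to 1.69), and both of its measured unigenes were on the black side at 1.41 and 1.60. IF4E, a second eIF4E entry, had 22.7 RPM in black and 18.6 RPM in yellow skin, 1.22 (1.05 to 1.41). The scaffold IF4G1, which joins the cap-binding protein to the ribosome, was near the low end with 105 RPM in black and 99.6 RPM in yellow skin, 1.06 (0.992 to 1.13). Over the 5 eIF4E and eIF4G genes the median log2 ratio was 0.17, which became -0.01 under TMM scaling and without the 100 most abundant unigenes.

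The factors that handle the initiator tRNA gave a mixed picture. IF2A, the eIF2 alpha subunit that stress kinases phosphorylate, had 74.5 RPM in black and 58.7 RPM in yellow skin, 1.27 (1.17 to 1.37). Of the 3 measured subunits of eIF2B, the complex that recharges eIF2 with GTP, EI2BB had 20.8 RPM in black and 15.3 RPM in yellow skin, 1.36 (1.16 to 1.59), and EI2BE had 24.5 RPM in black and 18.7 RPM in yellow skin, 1.31 (1.13 to 1.51). EI2BD was lower, with 17.99 RPM in black and 16.6 RPM in yellow skin, 1.09 (0.927 to 1.27), and its log2 ratio of 0.11 turned to -0.06 under TMM scaling. All 3 intervals include the ratio of the median gene. IF5, the GTPase activator of eIF2, had 274 RPM in black and 248 RPM in yellow skin, 1.11 (1.06 to 1.15), wholly below it. IF2P, the subunit-joining factor eIF5B, had the lowest ratio of the initiation factors at 22.9 RPM in black and 22.5 RPM in yellow skin, 1.02 (0.886 to 1.17). The mitochondrial initiation factor IF2M was next to it at 4.32 RPM in black and 4.17 RPM in yellow skin, 1.04 (0.747 to 1.43). The 9 genes of eIF3, the large scaffold on the small subunit, summed to 969 RPM in black and 792 RPM in yellow skin, 1.22 (1.20 to 1.25). IF5A1, the hypusine-bearing factor that helps at difficult peptide bonds, had 489 RPM in black and 401 RPM in yellow skin, 1.22 (1.18 to 1.26).

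**Figure D3:**
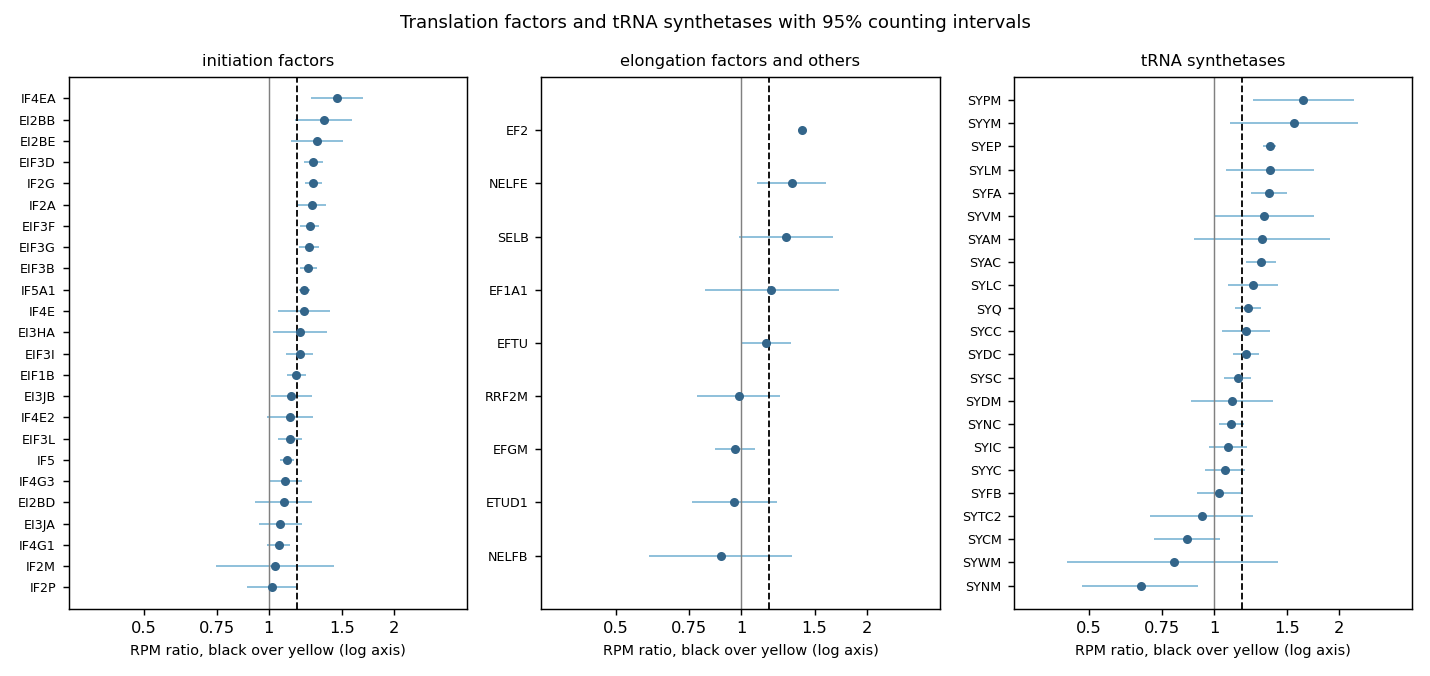
RPM ratio of black over yellow skin (x axis, log scale) of each measured initiation factor, elongation factor and other member, and tRNA synthetase, with 95% counting intervals, a solid line at equal RPM and a dashed line at the median annotated gene (1.17). EF2, at 1.40, stands apart from the other elongation factors with a narrow interval, and SYNM, at 0.666, is the lowest of the synthetases.

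Among 6 measured elongation factors, EF2, the GTPase that moves the ribosome by a codon, was the one with its whole interval above the median gene, at 1464 RPM in black and 1049 RPM in yellow skin, 1.40 (1.37 to 1.42). EFGM was the one with its whole interval below. Among measured genes that are no members, not matched for read depth, 18.3% lay wholly above and 20.2% wholly below. EF2 carried most of the summed reads of the role, whose median log2 ratio without weighting was 0.19. SELB, which delivers selenocysteine, had 7.43 RPM in black and 5.82 RPM in yellow skin, 1.28 (0.985 to 1.66). EF1A1, which delivers aminoacyl-tRNA, had 3.62 RPM in black and 3.06 RPM in yellow skin, 1.18 (0.818 to 1.72). The largest of its 3 unigenes, best matched by a mammal protein, had 2.82 RPM in black and 2.90 RPM in yellow skin, 0.976 (0.652 to 1.46). The mitochondrial factors were at or below the median gene. EFTU had 24.4 RPM in black and 21.3 RPM in yellow skin, 1.15 (0.999 to 1.32), and EFGM had 34.0 RPM in black and 35.2 RPM in yellow skin, 0.966 (0.864 to 1.08). ETUD1, a GTPase that acts in ribosome maturation and was taken by its description, had 7.82 RPM in black and 8.14 RPM in yellow skin, 0.961 (0.759 to 1.22). EF1G was below the minimum with 5 reads in black and 3 in yellow skin.

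Of the 22 measured aminoacyl-tRNA synthetases, 12 were above and 10 below the median of all genes. Of their intervals, 4 lay wholly above and 3 wholly below the ratio of the median gene. For measured genes that are no members the shares were 18.3% and 20.2%, not matched for read depth. SYEP, the bifunctional enzyme for glutamate and proline in the multisynthetase complex, had the most reads, with 410.4 RPM in black and 302 RPM in yellow skin, 1.36 (1.31 to 1.41). The 13 cytosolic enzymes had a median log2 ratio of 0.24 and an SD of 0.16. SYNC, which charges asparagine, had 88.2 RPM in black and 80.1 RPM in yellow skin, 1.10 (1.03 to 1.18). The 9 measured mitochondrial enzymes were more spread, with a median of 0.29 and an SD of 0.37, at few reads. SYPM, for proline, had 7.46 RPM in black and 4.56 RPM in yellow skin, 1.63 (1.24 to 2.17), the highest ratio of all measured members. SYYM, for tyrosine, had 4.58 RPM in black and 2.95 RPM in yellow skin, 1.55 (1.09 to 2.22). At the other end SYNM, for asparagine, had 3.70 RPM in black and 5.56 RPM in yellow skin, 0.666 (0.482 to 0.915), the lowest log2 ratio of all measured members. SYCM, for cysteine, had 12.1 RPM in black and 14.0 RPM in yellow skin, 0.860 (0.715 to 1.03). SYWM, for tryptophan, had 1.27 RPM in black and 1.59 RPM in yellow skin, 0.799 (0.442 to 1.42).

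For 7 amino acids both a cytosolic and a mitochondrial enzyme were measured. The mitochondrial enzyme had the lower log2 ratio for asparagine (a difference, mitochondrial minus cytosolic, of -0.62), cysteine (-0.45), aspartate (-0.12) and alanine (-0.08). It had the higher one for tyrosine (0.42), proline (0.16) and leucine (0.09). For alanine the direction rests on the pseudocount, since the RPM ratios were 1.302 for SYAM and 1.295 for SYAC. The counting intervals of the paired enzymes did not overlap for asparagine (0.482 to 0.915 for SYNM, 1.03 to 1.18 for SYNC). They also did not for cysteine (0.715 to 1.03 for SYCM, 1.04 to 1.36 for SYCC). For the other amino acids, including every pair with the higher mitochondrial value, the intervals overlapped. How often the intervals of other pairs of genes fail to overlap was not computed. The asparagine and cysteine pairs are therefore not read as a result about the synthetases.

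**Figure D4:**
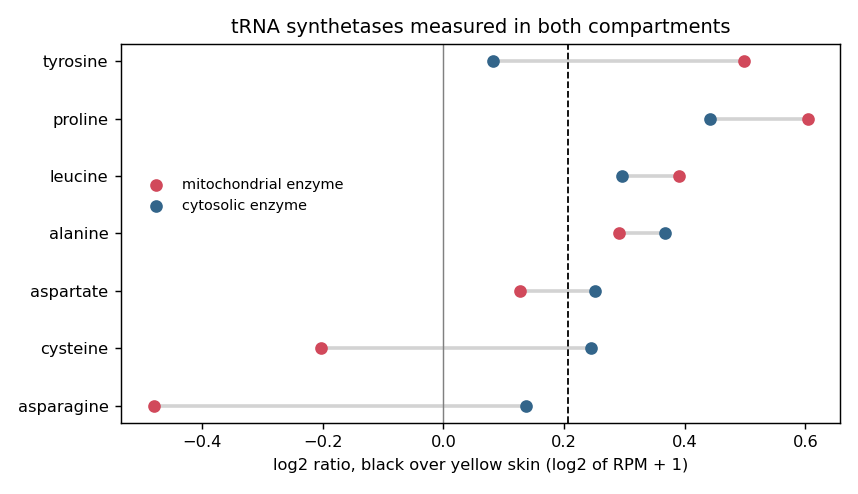
Log2 ratio of black over yellow skin (x axis, on log2 of RPM + 1) of the mitochondrial and the cytosolic tRNA synthetase of the same amino acid, for the 7 amino acids with both measured, with a solid line at 0 and a dashed line at the median of all annotated genes (0.21). The pairs for asparagine and tyrosine differ in opposite directions, by -0.62 and 0.42, and the counting intervals of the tyrosine pair overlap.

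The description rule also took genes of another role. NELFE and NELFB are subunits of the negative elongation factor, which pauses RNA polymerase II. NELFE had 13.8 RPM in black and 10.4 RPM in yellow skin, 1.32 (1.09 to 1.60), and NELFB had 2.80 RPM in black and 3.13 RPM in yellow skin, 0.893 (0.601 to 1.32). RRF2M, a mitochondrial GTPase that recycles ribosomes, had 8.36 RPM in black and 8.48 RPM in yellow skin, 0.986 (0.784 to 1.24). Adding RRF2M, the mitochondrial factors and the mitochondrial synthetases to the ribosomal proteins of the organelle gave 26 measured mitochondrial translation genes, of which 7 were above and 19 below the all-gene median. Ribosomal proteins were 2 of the 7 and 11 of the 19. The 9 synthetases alone had a median log2 ratio of 0.29. The median log2 ratio of the 26 was 0.02, or -0.18 relative to the median of all genes. It became negative under every other scaling (-0.10 to -0.15), where the median of all genes also fell, to between 0.03 and 0.07. The 72 measured genes of cytosolic translation had a median of 0.31, with 55 above and 17 below. Of the 55, 32 were ribosomal proteins.

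Most members were joined from 1 unigene, but 10 genes had several measured ones. The 2 unigenes of RS26 had ratios of 1.38 and 1.39, those of RL13 1.35 and 1.37, and those of RL5 1.20 and 1.25. For RL22 the ratio was 1.22 in the main unigene and 0.862 (0.592 to 1.25) in a minor one of 109 black and 137 yellow reads. The interval of the minor one includes the ratio of the main one. The 4 unigenes of EIF3B ran from 1.05 to 1.54.

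The unigenes below the minimum differed from the measured ones in where their names came from. A fish protein was the best match of 106 member unigenes, and 103 of these were measured. A mammal protein was the best match of 21, and 6 were measured. The 30 unigenes below the minimum included 15 with a mammal, 7 with an invertebrate and 2 with a protist match. They held 344 black and 303 yellow reads in all, and 11 of them, with 167 black and 195 yellow reads, had a plant protein as their Swiss-Prot match. RS6, a small-subunit protein phosphorylated by S6 kinase, was among the 30 with 7 black and 5 yellow reads. For 27 of the 30 the interval included equal RPM. The other 3 were higher in black, namely RL10 (13 black and 0 yellow reads), an EF1A1 unigene (13 and 0) and the mitochondrial isoleucine enzyme SYIM (36 and 12). The same share among other unigenes with so few reads was not computed, so these 3 are not read as a result about the members.

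**Figure D5:**
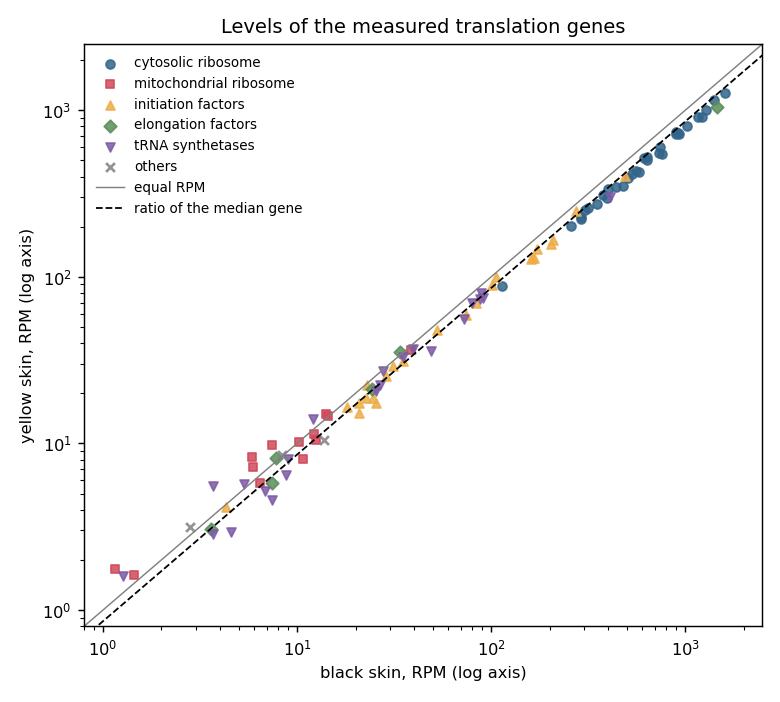
RPM in black skin (x axis) against RPM in yellow skin (y axis), both on log scales, of the 100 measured translation genes, marked by role, with a solid line at equal RPM and a dashed line at the ratio of the median annotated gene (1.17). The cytosolic ribosomal proteins lie along the lower side of the dashed line, and the wider scatter is at a few RPM, where mitochondrial ribosomal proteins and synthetases lie.

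Genes that make or steer the ribosome were read from lists that hold no members. In none of them was a measured gene at least 2-fold apart, where 0.96% of all measured annotated genes were. Of 43 measured genes of ribosome biogenesis, 16 were above and 27 below the all-gene median, with a median log2 ratio of 0.18. NHP2, of the box H/ACA particles that modify rRNA, had 14.9 RPM in black and 8.69 RPM in yellow skin, 1.72 (1.41 to 2.10). IMP3, of the small-subunit processome, had 7.12 RPM in black and 4.30 RPM in yellow skin, 1.65 (1.24 to 2.21). At the other end, EXOS7 of the RNA exosome had 5.17 RPM in black and 5.71 RPM in yellow skin, 0.905 (0.678 to 1.21), and SBDS, which frees the 60S subunit for joining, had 8.11 RPM in black and 8.89 RPM in yellow skin, 0.911 (0.725 to 1.14). The list of RNA polymerases I and III, which transcribe rRNA and tRNA, also held their transcription factors. Of its 7 measured genes, 2 were above the all-gene median, and the median log2 ratio was 0.06. The extremes on the high side were RPC2 at 1.34 (1.16 to 1.53) and RPA1 at 1.17 (1.08 to 1.27). On the low side were TF3C4, a transcription factor subunit, at 0.985 (0.580 to 1.67) and RPAC1 at 1.05 (0.672 to 1.63).

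Signalling genes that control translation had a median log2 ratio of 0.18 over 13 measured, with 5 above and 8 below the all-gene median. E2AK2, the double-stranded RNA kinase PKR that phosphorylates eIF2 alpha, had 36.1 RPM in black and 22.2 RPM in yellow skin, 1.62 (1.43 to 1.84). LTOR3, of the complex that anchors mTORC1 at lysosomes, had 8.02 RPM in black and 5.43 RPM in yellow skin, 1.48 (1.14 to 1.92). EF2K, the kinase that inhibits EF2, had 113 RPM in black and 107 RPM in yellow skin, 1.06 (0.994 to 1.13), and KS6B2, an S6 kinase, had 41.9 RPM in black and 39.1 RPM in yellow skin, 1.07 (0.967 to 1.19). EF2K, KS6B2 and RPAC1 were among the genes whose log2 ratio turns negative under TMM scaling.

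Termination, rescue and mRNA-binding genes were split, with 5 of 10 above the all-gene median and a median log2 ratio of 0.19. The release factor ERF3A had 106 RPM in black and 84.7 RPM in yellow skin, 1.25 (1.17 to 1.33), and the poly(A)-binding protein PABP1 had 1328 RPM in black and 1075 RPM in yellow skin, 1.24 (1.21 to 1.26). Its relative PABP4 had 116 RPM in black and 132 RPM in yellow skin, 0.879 (0.829 to 0.932), and DRG2, a GTPase, had a ratio of 0.938 (0.789 to 1.11). The signal recognition particle and translocon pass growing chains into the endoplasmic reticulum. Their list also held oligosaccharyltransferase genes, and it had 10 of 15 above the all-gene median and a median of 0.27. The next highest ratios after RPN1 and RPN2 were STT3A, DAD1 and OST48, also of the oligosaccharyltransferase, while STT3B of that enzyme was below the all-gene median. The particle and translocon genes lay on both sides of the all-gene median, with log2 ratios from -0.03 for S61A2 to 0.36 for S61A1. The median of the list thus does not describe the particle and translocon alone. RPN1 and RPN2 of the oligosaccharyltransferase had the highest ratios, at 38.98 RPM in black and 25.1 RPM in yellow skin, 1.55 (1.38 to 1.75), for RPN1, and 52.5 RPM in black and 36.1 RPM in yellow skin, 1.45 (1.32 to 1.61), for RPN2. The lowest were S61A2, at 0.976 (0.829 to 1.15), and SEC63, at 1.09 (0.994 to 1.20).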

How the data were processed

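For each unigene the deposited tables give 1 signal in each library, already normalised by the authors. Its unit was taken from the values as RPM, since no header names it. Repeated entries of a unigene (4131 of 128781) were used once. The deposited annotation holds entries other than measurements and gave names only, for 4.55% of 124650 unigenes, and may be part of a longer table. The submitters' processing notes name GRCz11, a zebrafish build, without its role. Assembler, aligner and counter: not given in the sources used here. Per the labels' protocols, RNA was extracted with Trizol.

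Read numbers came from the step between neighbouring values (1 read is 0.0282 RPM in black and 0.0261 RPM in yellow skin). Unigenes without reads carry the value of 0.5 read and were taken as 0 reads. Within 0.1 read, 100% of black and, after rounding, 100% of yellow values were whole. The limit for a unigene without reads is 3 reads, which is 0.0847 RPM in black and 0.0782 RPM in yellow skin. In black skin 8897 unigenes had 2 reads against 6459 with 1 and 7299 with 3, so mates appear to have been counted singly, and intervals (Clopper-Pearson form, 95%, conditional on the sum) count each pair once. PCR duplicates, if kept, would make them too narrow.

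Unigenes were summed by Swiss-Prot entry name. Log2 ratios used a pseudocount of 1 RPM, a minimum mean of 1 RPM and a 2-fold threshold, without further scaling. TMM factors came from edgeR 4.0.16, as an alternative only. Others were median-of-ratios scaling, totals without the 2 or 100 most abundant unigenes, pseudocounts of 0.1 and 5, other minimums, a 4-fold rule, an interval rule, other ways of joining unigenes and other membership rules. Steps were tested on simulated data (Python 3.11.15, pandas 2.3.3, scipy 1.17.1). Members and lists were chosen with earlier results of these data known. Named genes are the 3 highest, 3 lowest and 2 most-read measured members per role, a fixed set of well-known factors and the 2 highest and 2 lowest genes per pathway list. RLA1, RLA2, RL22, RL51, EI2BD, EIF3B, RL10, SYIM, AT2A1, NCF1, TFR1, HEM0, CAHZ, S61A1, STT3A, STT3B, DAD1 and OST48 were named for the features given beside them.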

Additional observations from a re-analysis of the deposited data

How the results depend on the processing

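No translation gene reached 2-fold under any alternative run, and no unigene did in the runs that recounted unigenes. The count was 0 throughout, where 0.96% of all measured annotated genes were at least 2-fold apart as reported. The 4-fold rule could not give another answer. Without a minimum, the pseudocount of 1 RPM still pulled genes with few reads toward 0. RL10, with 13 black and 0 yellow reads, had a log2 ratio of 0.43. Of 125 recomputed answers, 119 were taken as unchanged and 6 moved, none changing sign. Unchanged meant within counting error, within the order-statistic interval for medians, or equal at 0 for the counts of genes and unigenes. The 119 thus include counts that could not differ. They also include group medians taken relative to the median of all genes. Another scaling shifts both by nearly the same amount, so those runs could hardly move the difference. For the 6 measured elongation factors the order-statistic interval spanned the whole range of the genes. The summed cytosolic ribosomal protein ratio of 1.27 was 1.12 under TMM scaling, 1.15 under median-of-ratios scaling, 1.13 without the 2 and 1.12 without the 100 most abundant unigenes. With a pseudocount of 5, the small subunit's median stood 0.19 above all genes (0.16 as reported) and the large subunit's 0.18 (0.13 as reported). For single genes, 493 of 2890 recomputed values moved beyond counting error, 2 marker genes, CAHZ and NCKX5, fell below the 2-fold threshold with a pseudocount of 5, and no value past it changed sign. Membership by Swiss-Prot name was an alternative chosen after seeing the data. No paired analysis was possible because each colour has 1 library without a replicate number, and no replicate could be left out. Depth limits the mitochondrial ribosomal proteins, where 8 of 13 intervals include the ratio of the median gene.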

Other observations

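The description rule left out 21 unigenes that their Swiss-Prot match names as translation genes, 11 of them measured, a group formed after seeing the data. They include 5 cytosolic ribosomal proteins, whose log2 ratios ran from 0.25 to 0.38 with a median of 0.34, within the range of the 32 members. RSSA, the small-subunit protein also known as the laminin receptor, had 1389 RPM in black and 1079.8 RPM in yellow skin, 1.29 (1.26 to 1.31). RS6 had 1034 RPM in black and 816 RPM in yellow skin, 1.27 (1.24 to 1.29), in a unigene other than the fragment that the rule took. RS20 had 998 RPM in black and 766 RPM in yellow skin, 1.30 (1.27 to 1.33), RL7A had 1776 RPM in black and 1429 RPM in yellow skin, 1.24 (1.22 to 1.26), and RL14 had 621 RPM in black and 521 RPM in yellow skin, 1.19 (1.16 to 1.23).

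The elongation factors outside the rule differed in direction. A further unigene of EF2 had 61.4 RPM in black and 42.9 RPM in yellow skin, 1.43 (1.31 to 1.57). EF1A had 92.0 RPM in black and 104 RPM in yellow skin, 0.886 (0.829 to 0.946). IF2B, the beta subunit of eIF2, had 34.7 RPM in black and 29.7 RPM in yellow skin, 1.17 (1.04 to 1.31). SYTC, the cytosolic threonine enzyme, had 14.8 RPM in black and 14.1 RPM in yellow skin, 1.05 (0.881 to 1.25), and the mitochondrial phenylalanine enzyme SYFM had 5.88 RPM in black and 6.10 RPM in yellow skin, 0.963 (0.732 to 1.26).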
